A study of Mus musculus with 12 samples.

Results

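The keratins of simple and of basal epithelium, with Trp63, were described as 9 genes in mouse lung tumours, adjacent lung tissue and sorted alveolar type 2 (AT2) cells. They are Krt7, Krt8, Krt18 and Krt19 of simple epithelium, Krt5, Krt14, Krt15 and Krt17 of basal epithelium, and Trp63. The members were taken by symbol through their Ensembl identifiers, with no rule on their values but with earlier results of these data known. They are 9 of the 56608 gene identifiers in either count table. All mice were C57BL/6. Lung tumours and adjacent tissue came from the same 3 mice, numbered 102, 217 and 224, aged 18 months and carrying a Med23 knockout in T cells. AT2 cells, the surfactant-making cells of the alveolus, came from 3 mice with that knockout (numbers 175, 179 and 191) and from 3 wild-type mice (numbers 176, 177 and 190), all aged 6 months. Per the series' design text, the tumours arose spontaneously and the AT2 cells were sorted to examine them before tumours form. Med23 encodes a subunit of the Mediator complex, which links transcription factors to RNA polymerase.

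Several features limit these groups as models. No lung of wild-type mice was used here, so every lung value comes from knockout mice. The sources used here give neither the driver of the deletion in T cells nor the sort gate. Med23 was deleted in T cells, so its level in lung tissue or AT2 cells checks nothing. The lung libraries held 65163100 to 77951014 counts in all, and the AT2 libraries 15943084 to 18913242. The tables were normalised separately, and levels set across them are descriptions. The second principal component of the lung libraries, with 21.3% of the variance, set mouse 217 apart, and the first of the AT2 libraries, with 45.6%, set wild-type mouse 177 apart. The summed level of 8 AT2 markers was 141641.4 to 144325.4 CPM in knockout AT2 libraries and 142325.1 to 178938.1 CPM in wild-type AT2 libraries, so the labelled cell type carried its markers. Tumour libraries held 72975.1 to 227520.6 CPM of the same markers and adjacent libraries 21353.1 to 42296.4 CPM.

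Keratins are the intermediate filament proteins of epithelial cells. They polymerise as pairs of a type I and a type II chain, so that each filament needs a member of both types. Krt8 and Krt7 are type II chains and Krt18 and Krt19 are type I chains, and together they form the filaments of simple epithelia such as those lining the alveoli and airways. Krt5 (type II) pairs with Krt14 (type I) in basal cells, the stem cells of the pseudostratified airway, where the transcription factor encoded by Trp63 maintains the basal state. Krt15 and Krt17 are type I keratins of basal cells, and Krt17 is also known for its induction in stressed and wounded epithelium. In human pathology, keratin 7 marks lung adenocarcinoma, while keratin 5 and the p63 protein mark squamous carcinoma. Krt8 and Krt18 are neighbours on chromosome 15, separated by 23.7 kb, and most type I keratins lie in a cluster on chromosome 11.

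The promoter regions of 4 members are shown to set the Krt8 and Krt18 pair, which differed in their values, beside the other 2 type II genes, Krt7 and Krt5. Each sequence runs 5′ to 3′, from 250 bases before to 20 bases after the gene's start in RefSeq, on GRCm38.p6. Capitals mark matches on either strand to 4 motifs: a TATA box (TATAAA), an AP-1 site (TGANTCA), an ETS core (GGAAGT) and a GC box (GGGCGG). RefSeq promoters were matched for 5 of the 9 members. Krt14 was matched and is not shown. The RefSeq start lay 36 bases inside the GENCODE M21 gene for Krt18, 140 for Krt8 and 1360 for Krt7, and just outside it for Krt5, so the Krt7 window lies wholly within its annotated gene.
Krt18, chr15:102027966-102028235, plus strand: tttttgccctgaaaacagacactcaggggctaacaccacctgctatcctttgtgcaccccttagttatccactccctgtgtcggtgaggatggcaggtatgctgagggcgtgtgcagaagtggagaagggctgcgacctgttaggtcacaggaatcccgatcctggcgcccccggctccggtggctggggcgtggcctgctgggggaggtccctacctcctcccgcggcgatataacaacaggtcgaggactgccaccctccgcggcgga
Krt8, chr15:102004323-102004592, minus strand: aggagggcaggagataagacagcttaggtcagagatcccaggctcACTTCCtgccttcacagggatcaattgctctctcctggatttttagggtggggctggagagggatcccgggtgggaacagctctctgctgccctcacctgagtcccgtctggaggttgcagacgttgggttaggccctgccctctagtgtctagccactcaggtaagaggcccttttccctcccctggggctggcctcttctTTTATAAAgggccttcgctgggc
Krt7, chr15:101412153-101412422, plus strand: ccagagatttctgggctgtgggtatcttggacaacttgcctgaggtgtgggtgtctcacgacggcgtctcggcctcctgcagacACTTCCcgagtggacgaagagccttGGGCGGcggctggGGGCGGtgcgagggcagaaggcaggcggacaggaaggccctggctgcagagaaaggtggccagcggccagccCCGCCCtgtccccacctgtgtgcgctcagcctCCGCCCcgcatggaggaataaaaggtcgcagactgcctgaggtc
Krt5, chr15:101712886-101713155, minus strand: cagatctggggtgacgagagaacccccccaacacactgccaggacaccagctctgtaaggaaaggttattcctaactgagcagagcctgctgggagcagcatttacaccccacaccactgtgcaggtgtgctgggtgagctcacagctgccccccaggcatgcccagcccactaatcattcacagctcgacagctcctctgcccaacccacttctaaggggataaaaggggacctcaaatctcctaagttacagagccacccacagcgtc
The Krt18 and Krt5 windows held no match to the 4 motifs. The Krt8 window held 1 ETS core, whose first base lay 205 bases before the start, and TATAAA on both strands in overlapping matches 3 and 1 bases before the start. Krt7 held 1 ETS core 166 bases before the start and 4 GC boxes between 141 and 24 bases before it. Of 32540 RefSeq windows of the same length, 12.8% held TATAAA, 7.21% TGANTCA, 21.7% GGAAGT and 34.4% GGGCGG. These matches are descriptions of letters in the window.

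Levels are in CPM, which expresses counts relative to the size of their library, with TMM factors that adjust for differences in RNA composition. Summaries are mean ± SD with n = 3 libraries a group. A log2 fold change is tumour over adjacent tissue, or knockout over wild-type AT2 cells, ± its standard error, from edgeR's quasi-likelihood test. Adjusted p-values are Benjamini-Hochberg values over all genes tested, with a threshold of 0.05. Tissue libraries pool many cell types, so that fewer cells of a type and less RNA per cell cannot be told apart.

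Among the simple keratins, Krt18 was the member that rose in the tumours in the main fit, which had group as its only term. Krt8, Krt7 and Krt19 did not pass in that fit. Krt8 did pass when the mouse entered the fit as a block, with limma-voom and with DESeq2's Wald test. Of the 9 members, 5 had enough counts to be tested in the lung (Krt7, Krt8, Krt18, Krt19 and Trp63), and 1 of those 5 passed in the main fit. Over all 19995 genes tested, 10.0% passed in either direction, made up of 2.86% that were higher in tumours and 7.18% that were lower. Of the 2007 genes that passed, 28.5% were higher in tumours, or 17.6% of 2233 genes when libraries were scaled by their totals alone. That scaling placed the median log2 fold change of all genes at -0.18, against 0.04 with TMM.

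Krt18 encodes the type I keratin that pairs with Krt8 (ENSMUSG00000023043, GRCm38 chr15:102028180-102032027, plus strand). Its level was 465, 785 and 647 CPM in the tumours of mice 102, 217 and 224, against 108, 145 and 92.6 CPM in the adjacent tissue of the same mice. The lowest tumour lay above the highest adjacent sample, and every mouse was higher in its tumour. The tumours averaged 633 ± 161 CPM and the adjacent tissue 115 ± 27.1 CPM. The log2 fold change was 2.45 ± 0.37 (edgeR, Benjamini-Hochberg adjusted p = 0.0111), a 5.48-fold higher level with a 95% interval of 1.61 to 3.3 on the log2 scale. Within mice the tumour level was 4.29, 5.40 and 6.99 times that of the adjacent tissue. Without the adjacent library of mouse 224 the edgeR adjusted p was 0.0529 at a log2 fold change of 2.32, and Krt18 passed under the other 12 of 13 alternative settings.

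Krt8 encodes the type II partner of Krt18 (ENSMUSG00000049382, chr15:101996698-102004482, minus strand). It was measured at 549, 637 and 598 CPM in tumours, against 255, 324 and 225 CPM in adjacent tissue, in the same order of mice. The groups did not overlap, and 11.6% of all genes tested were likewise higher in every tumour library than in every adjacent one. The means were 594 ± 44.3 CPM in tumours, against 268 ± 50.9 CPM in adjacent tissue. The log2 fold change of 1.15 ± 0.31 (95% interval 0.43 to 1.87) did not pass (edgeR, Benjamini-Hochberg adjusted p = 0.0565). When mouse entered the edgeR fit as a block, Krt8 passed at a log2 fold change of 1.16 (adjusted p = 0.025). It also passed with limma-voom (adjusted p = 0.0358) and with DESeq2's Wald test (adjusted p = 0.0218).

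Some reads of Krt8 could belong to a near copy. Of the 50-base words in the Krt8 transcripts, 26.9% also occur in the pseudogene Krt8-ps. The counts assigned to Krt8-ps came to 0.308% of the Krt8 counts in tumours, against 0.206% in adjacent tissue. For Krt18 the shared share was 0.72%, and for Krt19 it was 0. Krt7 overlaps Gm671 and Krt8 overlaps Gm36026 on the opposite strand, and the library kit does not mark strand.

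**Figure D1:**
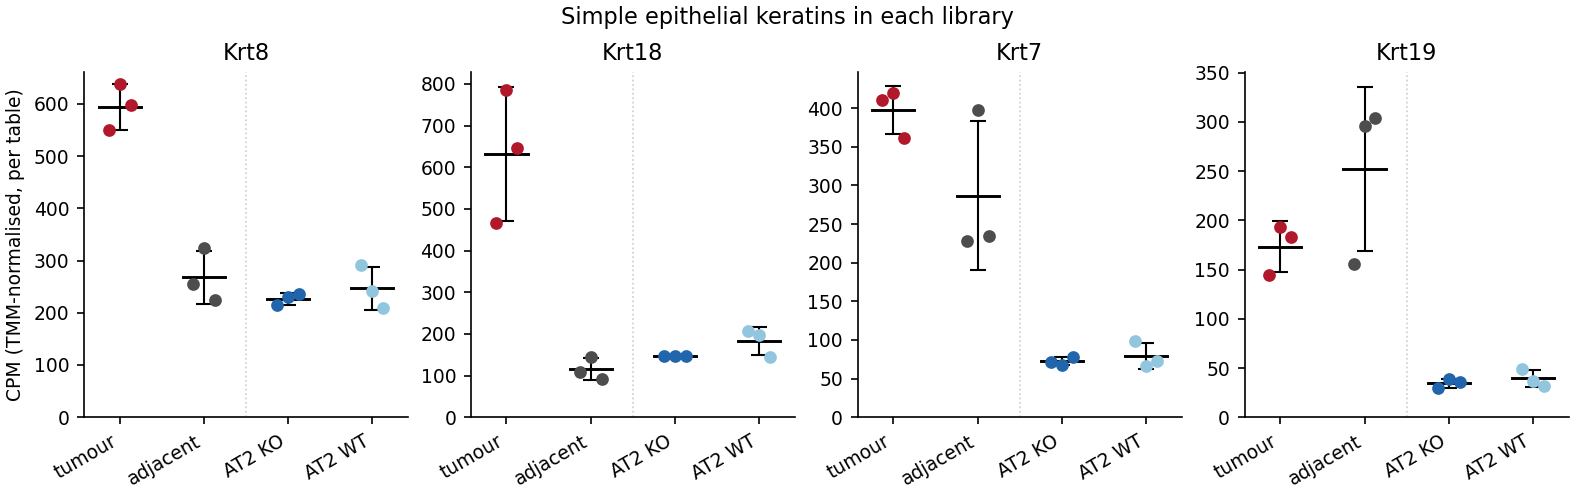
Levels of the 4 simple keratins in CPM (linear axes that start at 0 and differ between panels) in each of the 12 libraries; points are libraries, bars and whiskers are group means ± SD, and the dotted line parts the separately normalised lung and AT2 tables. Krt18 sits at 465 to 785 CPM in tumours, above the 92.6 to 145 CPM of adjacent tissue, while Krt7 and Krt19 overlap between tissues.

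Krt7 and Krt19 did not separate tumour from adjacent tissue. Krt7, a type II keratin (ENSMUSG00000023039, chr15:101411043-101430313, plus strand), was at 411, 419 and 362 CPM in tumours, against 228, 398 and 234 CPM in adjacent tissue. The adjacent sample of mouse 217 lay within the tumours' range, so the groups overlapped. The tumour mean of 397 ± 31.3 CPM and the adjacent mean of 287 ± 96.8 CPM gave a log2 fold change of 0.47 ± 0.34, with a 95% interval of -0.32 to 1.26 (edgeR, Benjamini-Hochberg adjusted p = 0.479). Tumour over adjacent ratios within mice were 1.81, 1.05 and 1.55.

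Krt19 encodes a type I keratin that has almost no tail domain (ENSMUSG00000020911, chr11:100140810-100148665, minus strand). It was at 144, 193 and 183 CPM in tumours, against 156, 296 and 304 CPM in adjacent tissue. Each tumour was lower than the adjacent tissue of its own mouse, at 0.923, 0.652 and 0.602 times its level, but the groups overlapped. The group means were 173 ± 25.6 CPM in tumours, against 252 ± 83.0 CPM in adjacent tissue. The log2 fold change was -0.54 ± 0.35 with a 95% interval of -1.36 to 0.28 (edgeR, Benjamini-Hochberg adjusted p = 0.428).

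The balance of the type I chains Krt18 and Krt19 stood in opposite order in tumour and adjacent tissue, which is given here as a description without a test. Levels between genes are compared here per kb of the longest protein-coding transcript (CPM per kb). In tumours the order was Krt18 at 440 ± 111, Krt8 at 303 ± 22.5, Krt19 at 110 ± 16.2 and Krt7 at 96.8 ± 7.4 CPM per kb. Krt18 and Krt8 overlapped there, at 324 to 546 and 280 to 325 CPM per kb, as did Krt19 and Krt7. In adjacent tissue the order was Krt19 at 160 ± 52.8, Krt8 at 137 ± 26.2, Krt18 at 80.3 ± 18.7 and Krt7 at 70.0 ± 23.6 CPM per kb. Neighbours in that order overlapped except Krt8 and Krt18, at 115 to 166 and 64.5 to 101 CPM per kb. The level of Krt7 depends on the length used, at 56.4 CPM per kb in tumours and 40.7 in adjacent tissue over its merged exons. Those span 7049 bases, against 4094 for the transcript used, and a longer length can only lower Krt7. No shorter length was tried for Krt7. The merged exons of Krt19 span 1855 bases, against 1576 for the transcript used, and its level over them was not worked out. The last place of Krt7, the first place of Krt19 in adjacent tissue and the shares of the 4 genes therefore hold for these lengths only.

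Krt18 made up 45.8 ± 4.68% of the 4 simple keratins per kb in tumours and 18.1 ± 2.95% in adjacent tissue. Krt19 made up 11.6 ± 0.466% in tumours and 35.5 ± 8.80% in adjacent tissue. The share of Krt8 was 32.2% in tumours and 31.0% in adjacent tissue. The ratio of Krt18 to Krt8 per kb was 1.16, 1.68 and 1.48 in the tumours of mice 102, 217 and 224, against 0.578, 0.611 and 0.561 in adjacent tissue. Every tumour had more Krt18 than Krt8 per kb, and every adjacent sample had less. Knockout AT2 cells had ratios of 0.929, 0.879 and 0.848, and wild-type AT2 cells 0.968, 1.11 and 0.938, between the values of the lung groups. The ratio of Krt19 to Krt18 per kb averaged 0.255 ± 0.0295 in tumours and 2.05 ± 0.854 in adjacent tissue.

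Markers of epithelial and other cells moved with this comparison. Epcam, a surface protein of epithelial cells, averaged 368 ± 40.3 CPM in tumours, against 70.5 ± 5.24 CPM in adjacent tissue, a log2 fold change of 2.38 ± 0.29 (edgeR, Benjamini-Hochberg adjusted p = 0.00765). Relative to Epcam, Krt18 overlapped between the tissues, with a count ratio of 1.74 ± 0.485 in tumours and 1.62 ± 0.258 in adjacent tissue. The same ratio was 1.63 ± 0.234 in tumours and 3.78 ± 0.433 in adjacent tissue for Krt8, 1.08 ± 0.0406 and 4.02 ± 1.06 for Krt7, and 0.477 ± 0.103 and 3.58 ± 1.22 for Krt19, with tumours given first in each. These ratios were not tested. Epcam had the largest log2 fold change of 16 genes of epithelial adhesion, whose median was 1.2. Ratios to another of those genes would therefore differ from these.

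**Figure D2:**
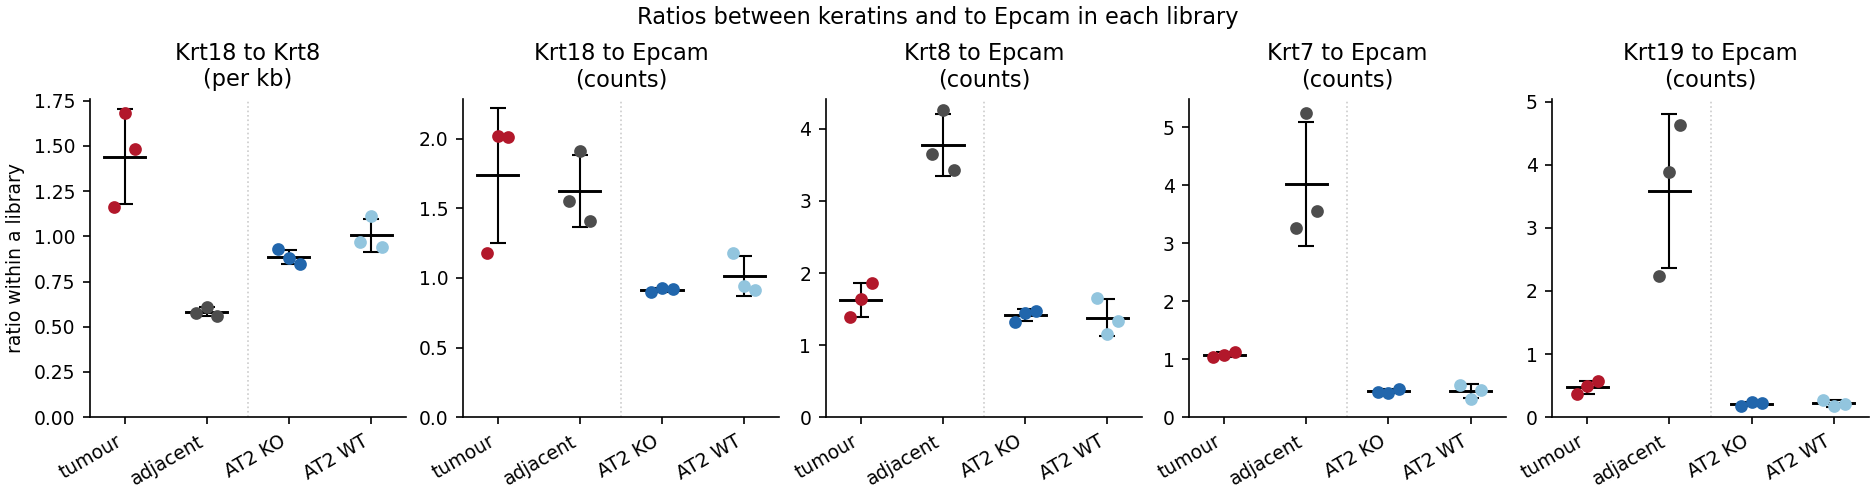
Ratio of Krt18 to Krt8 per kb of transcript, and count ratios of the 4 simple keratins to Epcam, in each of the 12 libraries; points are libraries, bars and whiskers are group means ± SD. The ratio of Krt18 to Krt8 lies at 1.16 to 1.68 in tumours and 0.561 to 0.611 in adjacent tissue, while the ratio of Krt18 to Epcam overlaps between them.

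Markers of other cell types differed too, among them mesothelial, club and ciliated cells, which also make simple keratins. Over all genes tested in the lung, 2.86% rose and 7.18% fell. The summed level of 8 mesothelial markers was 9.95 to 26.6 CPM in tumours, against 131 to 142 CPM in adjacent tissue, and 5 of the 8 fell. Muc16, a mesothelial surface mucin, had 0 counts in the tumours. Its adjacent mean was 3.97 CPM, which makes the tumours at least 266-fold lower, against a floor of 3 counts over the group. Club cell markers summed to 2664.9 to 4209.4 CPM in tumours, against 19550.7 to 39941.6 CPM in adjacent tissue, and 4 of the 7 tested fell. Ciliated cell markers summed to 324 to 404 CPM in tumours, against 774 to 1150.8 CPM in adjacent tissue, and 6 of the 8 fell. Most of the tumour sum was Tubb4b, which did not pass, at 348 ± 28.7 CPM in tumours, against 415 ± 69 CPM in adjacent tissue. Among those that fell, Foxj1 was at 1.92 CPM in tumours, against 166 CPM in adjacent tissue, and Hydin at 0.103 against 34.3 CPM. Immune and vessel markers summed to 543 to 694 CPM in tumours, against 1803.9 to 2594.0 CPM in adjacent tissue, and 3 of the 8 fell. Of the AT2 markers 2 of 8 passed, both higher in tumours, against 6 with the mouse as a block, 6 with DESeq2's Wald test, 4 with limma-voom and 0 without both libraries of mouse 217. The calls over all genes moved too. They were 2007 in the main fit, against 2980, 3728, 2251 and 847 under those settings, in the same order. Of the AT1 markers 3 of 8 fell. The part of these cell types in the keratin values was not tested. Leaving out 1 library at a time gave 1 to 7 calls among the mesothelial markers, 2 to 4 among the club markers, 3 to 7 among the ciliated markers, and 0 to 3 among the AT2 and the immune and vessel markers.

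The basal keratins had between 0 and 39 counts in any library. Summed over the 3 libraries of each group, Krt5, Krt14, Krt15 and Krt17 had 18 counts in tumours, against 111 in adjacent tissue, beside 361010 counts of the 4 simple keratins in tumours and 210939 in adjacent tissue. None of the basal keratins had enough counts to be tested in the lung. A count of 0 over the 3 libraries allows up to 3 counts, which is 0.0149 CPM in tumours, against 0.0131 CPM in adjacent tissue. Such floors cover counting error only, and assume that a count is 1 read or read pair.

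Krt5, the type II keratin of basal cells (ENSMUSG00000061527, chr15:101707070-101712898, minus strand), had 0 counts in each tumour, against 0, 13 and 25 counts in the adjacent tissue of mice 102, 217 and 224. Its level was therefore at least 11.3-fold lower in tumours than the adjacent mean of 0.169 CPM. The bound was 5.84-fold without the adjacent library of mouse 224 and 17.0-fold without that of mouse 102, which had 0 counts in both tissues, so the libraries overlapped. When the filter on low counts was left out, none of the basal keratins passed in the lung, with edgeR adjusted p-values of 0.239 for Krt5 to 0.987 for Krt14. Krt14, its type I partner (ENSMUSG00000045545, chr11:100203162-100207548, minus strand), had 4, 0 and 0 counts in tumours, against 4, 0 and 0 in adjacent tissue. Mouse 102 held all of them, in both tissues. Krt15 (ENSMUSG00000054146, chr11:100131758-100135928, minus strand) had 0, 0 and 5 counts in tumours, against 5, 0 and 39 in adjacent tissue. Krt17 (ENSMUSG00000035557, chr11:100256217-100261029, minus strand) had 5, 4 and 0 counts in tumours, against 0, 0 and 25 in adjacent tissue. The adjacent library of mouse 224 alone held 89 of the 111 adjacent counts of the basal keratins. Reads of Krt14 and Krt17 can be shared with each other and with Krt16, and 13.9% of the 50-base words of Krt14 and 3.99% of those of Krt17 occur in other genes. Of the words of Krt5, 8.52% occur in other genes, among them Krt6a and Krt6b. Krt5 also overlaps Gm44323 on the opposite strand, which had 0 counts in both tissues.

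Trp63 (ENSMUSG00000022510, chr16:25683763-25892102, plus strand) was the only gene of the basal programme among the members with enough counts for the lung test. It had 32, 21 and 5 counts in tumours, against 24, 21 and 62 in adjacent tissue. The groups overlapped, and the order differed between mice. The tumour mean of 0.287 ± 0.195 CPM and the adjacent mean of 0.469 ± 0.308 CPM gave a log2 fold change of -0.70 ± 0.93, with a 95% interval of -2.87 to 1.46 (edgeR, Benjamini-Hochberg adjusted p = 0.736). Trp63 overlaps Gm27005 on the same strand and Gm24928 on the opposite strand. The part of those genes in its counts was not tested.

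**Figure D3:**
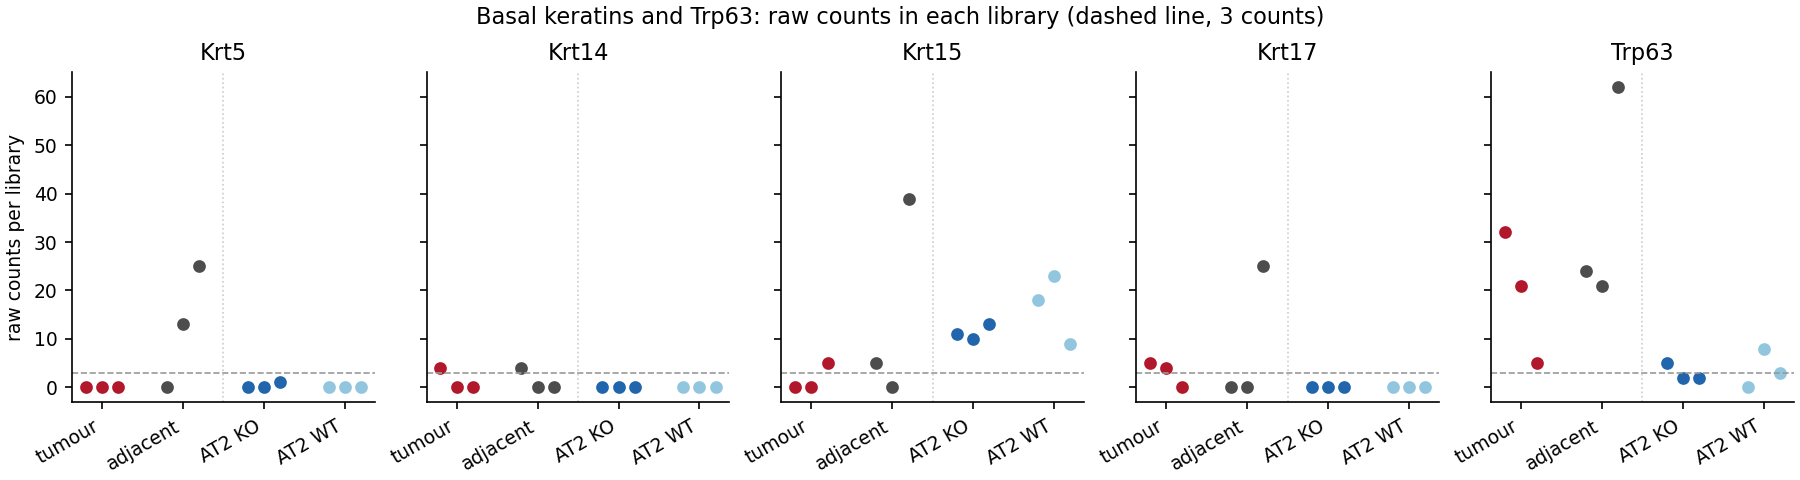
Raw counts of Krt5, Krt14, Krt15, Krt17 and Trp63 in each of the 12 libraries, with 1 point a library and a dashed line at 3 counts. Tumour libraries hold 0 to 5 counts of each basal keratin, and the adjacent library of mouse 224 holds 25 counts of Krt5, 39 of Krt15 and 25 of Krt17.

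The other genes of basal and squamous cells are given beside the 10.0% of all lung genes that passed. Of 12 basal cell genes beside the members, 10 were tested, 0 rose and 1 fell, with a median log2 fold change of -0.54. The gene that fell was Hlf, a transcription factor, at 0.679 ± 0.357 CPM in tumours, against 6.84 ± 3.2 CPM in adjacent tissue. It did not pass without the tumour libraries of mice 102 and 224 or the adjacent libraries of mice 102 and 224, each left out alone. Of 18 genes of squamous and hillock cells, 9 were tested, 1 rose and 1 fell, with a median of 0.75. Ivl, the cornified envelope precursor involucrin, rose to 6.34 ± 3.57 CPM in tumours, against 0.156 ± 0.0339 CPM in adjacent tissue, a log2 fold change of 5.33 ± 0.71 (edgeR, Benjamini-Hochberg adjusted p = 0.00871). Without both libraries of mouse 217, Ivl did not pass, at a log2 fold change of 5.07 (edgeR, adjusted p = 0.0515). Sorted AT2 cells also held Ivl, with 105 to 139 counts in knockout libraries and 125 to 158 counts in wild-type libraries. Its level there was 7.04 ± 0.796 CPM in knockout and 8.2 ± 1.06 CPM in wild-type cells. These levels stood nearer to that of the tumours than of the adjacent tissue, as a description across separately scaled tables. The gene that fell was Ecm1, a matrix protein also made in skin, which did not pass when any 1 of the 6 libraries was left out.

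Of the 46 other keratin genes in the tables, 21 had 0 counts in all 6 lung libraries and 11 were tested. Of those 11, 2 rose and 3 fell, beside 2.86% and 7.18% of all genes tested. Krt23, a type I keratin, was at 62.8, 121 and 96.5 CPM in tumours, against 10.3, 13.8 and 10.9 CPM in adjacent tissue. It rose with a log2 fold change of 3 ± 0.36 (edgeR, Benjamini-Hochberg adjusted p = 0.00723). Krt87, a hair-type keratin, was at 8.25 ± 1.18 CPM in tumours, against 1.35 ± 0.280 CPM in adjacent tissue, with a log2 fold change of 2.61 ± 0.44 (edgeR, adjusted p = 0.0147, or 0.0625 without the adjacent library of mouse 224 and 0.0699 without both libraries of mouse 217). It shares 36.9% of its 50-base words with Krt81, Krt83, Krt86 and Gm49425, so its counts are uncertain.

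Krt80 and Krt79, both type II keratins, fell. Krt80 was at 13.4, 11.9 and 9.20 CPM in tumours, against 374, 140 and 177 CPM in adjacent tissue, with a log2 fold change of -4.33 ± 0.48 (edgeR, Benjamini-Hochberg adjusted p = 0.00627). Krt79 had 51, 13 and 31 counts in tumours, against 1083, 430 and 1287 in adjacent tissue, with a log2 fold change of -4.71 ± 0.70 (edgeR, adjusted p = 0.0111). Krt86 had 0 counts in tumours, against 54 in adjacent tissue, at least 15.7-fold lower (edgeR, adjusted p = 0.0442). It did not pass when any 1 library was left out, up to an adjusted p of 0.145, or with the mouse as a block (edgeR, adjusted p = 0.124), and 43.3% of its 50-base words occur in other keratins. In AT2 cells, Krt23 was at 119 ± 1.09 CPM in knockout and 133 ± 14.6 CPM in wild-type libraries, and Krt80 at 14.6 ± 2.02 and 17.1 ± 0.266 CPM, with knockout first. These AT2 levels stood nearer to those of the tumours than of the adjacent tissue, as a description across separately scaled tables. The same held for Krt79 (0.503 and 0.386 CPM) and the member Krt19 (34.5 and 39.3 CPM). Other keratins stood nearer to the adjacent tissue. They were Krt87 (2.4 and 2.21 CPM) and the members Krt18 (147 and 182 CPM), Krt8 (226 and 247 CPM) and Krt7 (72.4 and 79.1 CPM).

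Junction genes of epithelial cells, to which keratin filaments attach or which mark the same cells, were counted on lists. Of 16 genes of epithelial adhesion, 6 rose and 0 fell, beside 2.86% of all genes tested that rose and 7.18% that fell. The median log2 fold change of the list was 1.2, against 0.04 over all genes. Rab25, a vesicle transport GTPase of epithelia, was at 88.3 ± 28.3 CPM in tumours, against 20.1 ± 3.60 CPM in adjacent tissue (2.14 ± 0.34, edgeR, Benjamini-Hochberg adjusted p = 0.0134), and Grhl2, a transcription factor of epithelial identity, at 82.5 ± 13.6 and 21.1 ± 6.43 CPM, with tumours first. Grhl2 did not pass without the tumour library of mouse 102 or 224 or the adjacent library of mouse 224. Cdh1, which encodes E-cadherin, was at 594 ± 257 CPM in tumours, against 374 ± 57.2 CPM in adjacent tissue and did not pass. Leaving out 1 library at a time gave 2 to 6 calls on this list, the mouse as a block gave 10, and leaving out both libraries of mouse 217 gave 2. Over all genes these settings gave 598 to 1854, 2980 and 847 calls, in the same order. Rab25 did not pass in that last fit (edgeR, adjusted p = 0.0562).

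Of 18 desmosome and keratin linker genes, 15 were tested and 0 passed with edgeR, limma-voom or DESeq2, with 1 at an unadjusted edgeR p under 0.05 and a median log2 fold change of -0.18. The edgeR fit without the tumour library of mouse 217 called 1 of them. Jup, the desmosomal plaque protein plakoglobin, was at 328 ± 131 CPM in tumours, against 372 ± 34 CPM in adjacent tissue, and Plec, the keratin crosslinker plectin, at 234 ± 71.2 and 378 ± 130 CPM, with tumours first. Among 8 other intermediate filament genes, 0 rose and 2 fell, beside 7.18% of all genes tested that fell. The 2 were Des of muscle and Nes of progenitor and vessel cells. Des was at 23.8 ± 16.1 CPM in tumours, against 158 ± 85.1 CPM in adjacent tissue, and both genes passed in 1 of the 6 fits that left out 1 library. Vim, the filament of mesenchymal cells, was at 316 ± 121 CPM in tumours, against 864 ± 351 CPM in adjacent tissue and did not pass (edgeR, adjusted p = 0.0952).

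Krt8 is also known as a marker of the alveolar transitional state, an intermediate between AT2 and AT1 cells in mouse lung repair. Of 17 other genes of that state, 2 rose, 1 fell and 14 did not pass, with a median log2 fold change of 0.28. The shares over all genes tested were 2.86% that rose and 7.18% that fell. Clu, the secreted chaperone clusterin, was at 4367.0 ± 2370.5 CPM in tumours, against 343 ± 110 CPM in adjacent tissue (3.67 ± 0.62, edgeR, Benjamini-Hochberg adjusted p = 0.0147). Clu did not pass when any 1 of the 3 adjacent libraries was left out, at an edgeR adjusted p of up to 0.056. Areg, an EGF receptor ligand, rose to 59.4 ± 38.7 CPM in tumours, against 14.8 ± 2.34 CPM in adjacent tissue, and passed in 1 of the 6 fits that left out 1 library. The gene that fell, by a value that rounds to the threshold, was Plaur, the urokinase receptor, at 33.3 ± 4.96 CPM in tumours, against 88.1 ± 32.4 CPM in adjacent tissue. It passed in 1 of those 6 fits.

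**Figure D4:**
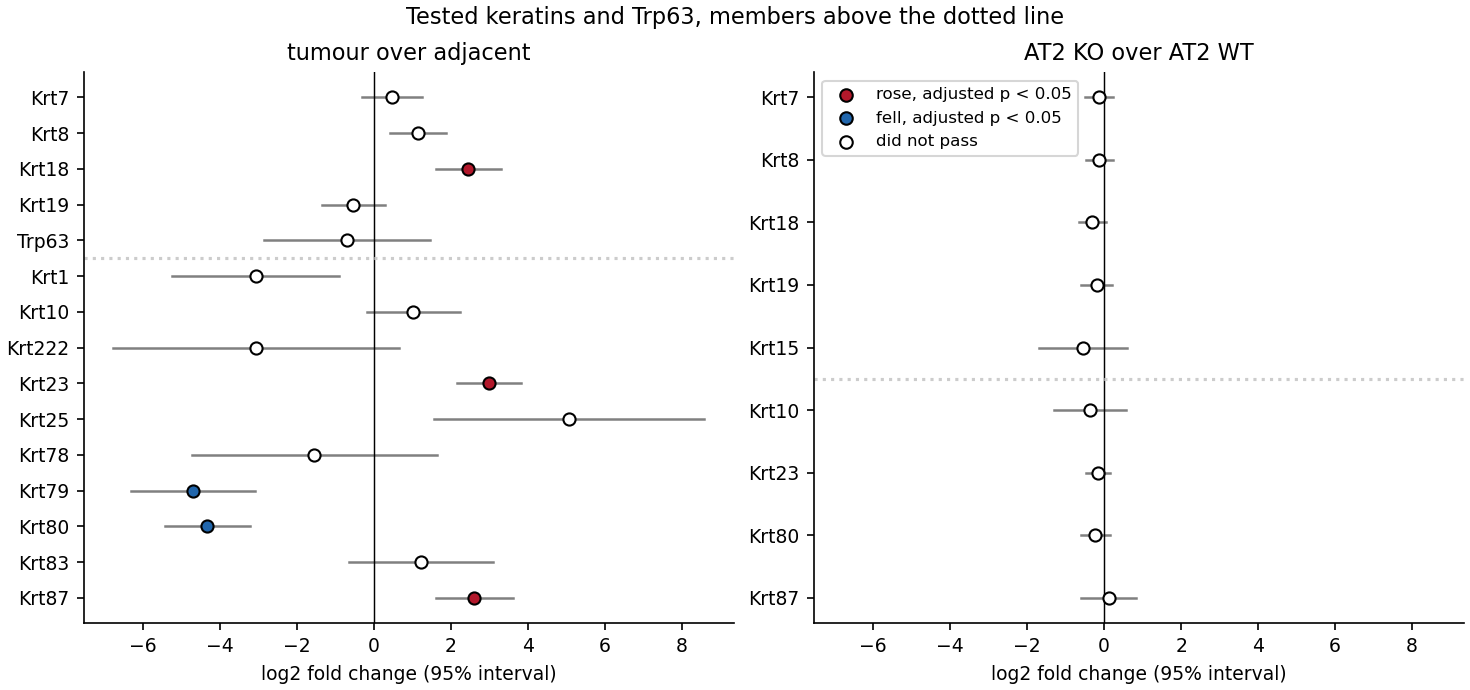
Log2 fold changes with 95% intervals of the tested members (above the dotted line) and other tested keratins, for tumour over adjacent tissue on the left and knockout over wild-type AT2 cells on the right; red points rose, blue points fell, open points did not pass, and Krt86, at 0 counts in tumours, is left out. Krt18 at 2.45 and Krt23 at 3 lie to the right of 0, Krt80 at -4.33 and Krt79 at -4.71 to the left, and no AT2 point is filled.

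The genes with profiles most like Krt18 were found by the Euclidean distance between centred log2 CPM values over the 6 lung libraries. They were ranked among 11910 genes with a mean of at least 5 CPM, with predicted genes left out. The values were not scaled, so the distance largely follows the difference in log2 fold change and is no separate evidence of a shared profile. The nearest 5 were Bmp4 at a distance of 0.492, Tmem54 at 0.512, Mex3a at 0.522, Aif1l at 0.541 and Nipsnap1 at 0.549. Krt8 itself ranked 294 from Krt18, at 1.62, with log2 fold changes of 1.15 for Krt8 and 2.45 for Krt18. The nearest 5 to Krt8 were Maged2 at 0.106, Yars2 at 0.128, Hibadh at 0.214, Usp3 at 0.257 and Pex11a at 0.273. Bmp4, a secreted growth factor, was at 326 ± 146 CPM in tumours, against 51.7 ± 6.73 CPM in adjacent tissue.

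Between knockout and wild-type AT2 cells, no tested member passed the threshold. Of the 9 members, 5 were tested there (Krt7, Krt8, Krt18, Krt19 and Krt15) and 0 passed, as did 0.00% of all 14053 genes by edgeR, with 347 genes at an unadjusted p under 0.05. DESeq2 called 1 gene over the whole table. Krt18 was at 146, 148 and 146 CPM in knockout mice 175, 179 and 191, against 207, 197 and 144 CPM in wild-type mice 176, 177 and 190. The wild-type library of mouse 190 lay just below the knockout libraries, so the groups overlapped. The means of 147 ± 1.27 CPM in knockout and 182 ± 33.8 CPM in wild-type cells gave a log2 fold change of -0.31 ± 0.16, with a 95% interval of -0.66 to 0.04 (edgeR, Benjamini-Hochberg adjusted p = 0.984).

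Krt8 was at 214, 230 and 235 CPM in knockout AT2 cells, against 291, 241 and 209 CPM in wild-type AT2 cells. The interval of its log2 fold change of -0.13 ± 0.16 was -0.47 to 0.22. Krt7 was at 71.6, 68.0 and 77.7 CPM in knockout cells, against 98.2, 65.8 and 73.1 CPM in wild-type cells, with an interval of -0.49 to 0.24. Krt19 was at 29.6, 38.5 and 35.5 CPM in knockout cells, against 48.8, 37.2 and 32.1 CPM in wild-type cells, with an interval of -0.59 to 0.21. For these 3 genes the highest library was that of wild-type mouse 176 and the groups overlapped, whereas 8.30% of all genes tested did not overlap in either direction. Per kb, Krt8 at 115 ± 5.69 and Krt18 at 102 ± 0.577 led in knockout cells, followed by Krt19 at 21.9 ± 2.85 and Krt7 at 17.7 ± 1.21 CPM per kb. Wild-type cells had Krt18 at 127 ± 23.7 and Krt8 at 126 ± 21.2 CPM per kb, whose ranges overlapped.

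Krt15 was the only basal keratin with enough counts to be tested in AT2 cells, with 11, 10 and 13 counts in knockout libraries, against 18, 23 and 9 in wild-type libraries. The groups overlapped, at 0.658 ± 0.118 CPM in knockout and 0.965 ± 0.409 CPM in wild-type cells (log2 fold change -0.55 ± 0.52, 95% interval -1.69 to 0.59). Krt5 had 1 count in knockout mouse 191 and 0 in each of the other 5 AT2 libraries, and Krt14 and Krt17 had 0 in all 6. A count of 0 over a group allows up to 0.0578 CPM in knockout and in wild-type cells. Trp63 had 5, 2 and 2 counts in knockout libraries, against 0, 8 and 3 in wild-type libraries, and was not tested. The summed level of 8 immune and vessel markers was 21.9 to 39.0 CPM in knockout AT2 cells and 20.9 to 24.9 CPM in wild-type AT2 cells. AT1 markers summed to 1529.9 to 1617.6 CPM in knockout and 1524.9 to 1967.6 CPM in wild-type cells. Club markers summed to 4784.8 to 5229.5 CPM in knockout and 4286.3 to 5636.3 CPM in wild-type cells. Most of that was Cbr2, at a mean of 3627.1 CPM in knockout and 3842.4 CPM in wild-type cells.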

How the data were processed

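Poly-A RNA was purified on poly-T magnetic beads before NEBNext Ultra library preparation, per the labels' protocols. Counts per gene were deposited by the authors as whole numbers without normalisation, with lung and AT2 libraries in separate tables. The submitters' processing notes name the build GRCm38 (mm10) and, in no stated order or role, HISAT2, StringTie 1.3.3b, Trimmomatic 0.39, FastQC and DESeq2 1.28.1. How reads were counted, with which strand setting and annotation, the sources used here do not say.

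Names, coordinates and transcript lengths came from GENCODE M21. Identifiers that matched no name (1035 in lung, 37 in AT2) carried 0.0388% and 0.00383% of the counts. Each table was fitted in R 4.3.3 with edgeR 4.0.16 (filterByExpr, TMM, quasi-likelihood test), with group as the only term. Alternatives used DESeq2 1.42.0, limma 3.58.1, other scalings, no filter, 1 library left out, and the mouse as a block. The mouse numbers pair the lung samples, which come from the same animals; their deviations from the group means correlated at r = 0.273, 0.459 and 0.366 across genes. Scripts were tested on simulated data.

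The members and all gene lists were chosen with earlier results of these data known. Named genes were the members, the other keratins that passed, up to 4 passing and up to 2 of the highest non-passing genes of a list, and the 5 nearest profiles to Krt18 and Krt8. The text describes only some of these.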

Additional observations from a re-analysis of the deposited data

How the results depend on the processing

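The lung comparison gave 2007 genes past the threshold. DESeq2's Wald test gave 3728, leaving out both libraries of mouse 217 gave 847, and leaving out 1 library at a time gave 598 to 1854. With the mouse as a replicate block it gave 2980, of which 1113 were higher in tumours and 1867 lower. Of the members, 1 passed in the lung, against 2 with DESeq2's Wald test, limma-voom and the replicate block (Krt18 and Krt8), and 0 to 1 with 1 library left out. For AT2 cells the count of 0 became 17 without the filter on low counts, 1 with DESeq2's Wald test, and 0 to 1 with 1 library left out; no tested member was among the calls. Among 47 named genes with a call, 17 kept it in each of the 6 fits that left out 1 lung library. Directions turned for few genes, none of which passed. Icam1 was 0.01 on the log2 scale with DESeq2 size factors and -0.26 to 0.12 with 1 library left out. Fn1 ranged from -0.08 to 0.85, Itga6 from -0.60 to 0.25 and Sfn from -0.27 to 0.12 with 1 library left out, and Sfn was 0.05 without mouse 217. In AT2 cells Krt7 ranged from -0.24 to 0.06 and Krt8 from -0.23 to 0.01, both turning without wild-type mouse 176. The causes were not tested. With 3 libraries a group and few counts of the basal keratins and Trp63, small differences could not be detected.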
